A study of Rattus norvegicus with 23 samples.

Results

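The constitutive proteasome subunits were followed through peripheral blood mononuclear cells (PBMC) of rat pups at weaning. Members were all genes on the array whose name starts with Psma, Psmb, Psmc, Psmd, Psmf or Psmg, leaving out the 3 immunoproteasome subunits Psmb8, Psmb9 and Psmb10, with the pup channel well above background on at least 12 of 23 arrays. The rule found 41 probes for 34 genes out of 20764 features tested, and each gene is given by its brightest probe. All 34 genes were above background on all 23 arrays. One of them, Psmc3ip, is a recombination factor that shares only its name with the family, so 33 members are proteasome genes. The set holds 14 subunits of the 20S core, 16 of the 19S regulator and 3 chaperones of 19S assembly. Every member name in the files equals the current RefSeq symbol. For 14 members RefSeq also lists a pseudogene of that name, and their probes could read both copies.

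The pups were male and female Wistar rats aged 21 days, from 16 litters, all raised by dams on a standard chow diet. The 11 control dams ate freely, and the 5 calorie-restricted (CR) dams received 20% less energy from day 1 after delivery until weaning. One pup was hybridised per array in the red channel (Cy5), against a green (Cy3) pool of all samples. Males numbered 6 in the control group and 5 in the CR group, and females 6 in each. Which pups came from one litter is not recorded in the labels. The 6 CR females outnumber the 5 CR dams, so some CR pups must share a dam. Such pups count as separate replicates here, and p-values may be too small. All values below are log2 ratios of pup over pool unless stated. They rank the pups for 1 gene and do not compare one gene with another.

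The proteasome is the cell's main protease for proteins tagged with ubiquitin. Its 20S core is a barrel of stacked rings, with alpha subunits that gate the entrance and beta subunits inside, of which Psmb5, Psmb6 and Psmb7 carry the active sites. The 19S regulator caps the barrel: ATPases of the base (Psmc genes) unfold the substrate, and the lid removes its ubiquitin. Psmd genes encode the lid, the other base subunits, among them a ubiquitin receptor, and chaperones of base assembly. The catalytic beta subunits can be replaced by Psmb8, Psmb9 and Psmb10, which favours peptides for antigen presentation. When proteasome capacity falls short, the transcription factor Nfe2l1 raises many subunit genes together.

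The arrays had 20603 to 24076 probes well above background (median 22487). The arrays lie on 6 slides, of which 4 hold all 4 groups. Blood cell markers put B, T and NK lymphocytes and monocytes on the arrays, with 9 of the 10 measured T cell markers above background on all 23. B cell markers were lower in CR pups, 7 of 7 in each sex, with a median difference of -0.50 in males and -0.31 in females, though none passed the test. In males their mean ranged from -0.059 to 0.61 in controls and from -0.59 to 0.069 in CR pups, and in females from 0.049 to 0.79 and from -0.31 to 0.21. Red cell markers (9 measured) ranged more widely, from -1.88 to -0.16 in control males and from -1.48 to 0.60 in CR males, with a median difference of 0.79 and 9 of 9 higher in CR males. In females 9 of 9 were lower in CR pups, with a median of -0.33 (5 of 9 with scale normalization), and their means ran from -1.52 to 1.09 in controls and from -1.25 to 1.96 in CR pups. NK cell markers were higher in CR males in 8 of 8, with a median of 0.31 and the smallest unadjusted p for Klrd1 (0.000282, adjusted p 0.532 by limma), and in 5 of 8 in CR females, with a median of 0.025. With median centring 4 of 8 were higher in males. Their mean ran from -0.49 to 0.091 in control males and from 0.053 to 0.28 in CR males. Neutrophil markers were higher in 6 of 6 in CR males (median 0.23) and 5 of 6 in CR females (median 0.28). These cell types' part in any result below was not tested. Because PBMC are a mixture, fewer cells of a type and less RNA per cell cannot be told apart.

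The first question was whether maternal restriction moved the proteasome genes of male pups. No member passed the test (limma, Benjamini-Hochberg adjusted p under 0.05), and none of the 20764 features did (0%). The median difference between CR and control males was -0.022 over the members and -0.0066 over all features. The smallest adjusted p of a member was 0.637, for Psmd3. At an unadjusted p under 0.05, 1 member of 34 differed, against 7.19% of all features. No member had CR and control males that did not overlap, against 0.393% of all features.

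With loess, most members' differences were bounded within narrow limits. For 25 of 34 members the 95% confidence interval of the male difference lay inside 1.2-fold in either direction, and for 33 it lay inside 1.5-fold. Psmd3 was the member outside the wider limit. In females the counts were 29 and 33, and Psma2 lay outside the wider limit. These bounds rest on the scaling. In males the count inside 1.2-fold was 22 with the scanner's ratio, 15 with Cy5 alone, 11 with scale normalization and 0 with median centring. With median centring no male interval lay inside 1.5-fold either, and in females 0 lay inside 1.2-fold and 31 inside 1.5-fold.

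Both the size and the number of members lower in CR males depended on the scaling. In males 25 of the 34 members were lower in CR pups, against 52.7% of all features. That count was 21 with scale normalization between arrays, 19 with the scanner software's ratio, 19 with the Cy5 channel alone and 24 in the deposited value table. With each array centred on its median, in place of a loess fit that removes brightness trends, all 34 were lower in CR males and the median member difference was -0.50. The same setting moved the median of all features to -0.19 and that of the 11053 features in the members' range of brightness to -0.37, with 95.1% of those below 0. It gave 28 members an unadjusted p under 0.05, against 31.4% of all features and 49.6% of those in that range, and none an adjusted one. The range runs from the dimmest to the brightest member, so its features are not matched to the members in brightness. Without a dye swap, a dye trend with brightness and a change shared by genes of like brightness cannot be told apart.

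**Figure D1:**
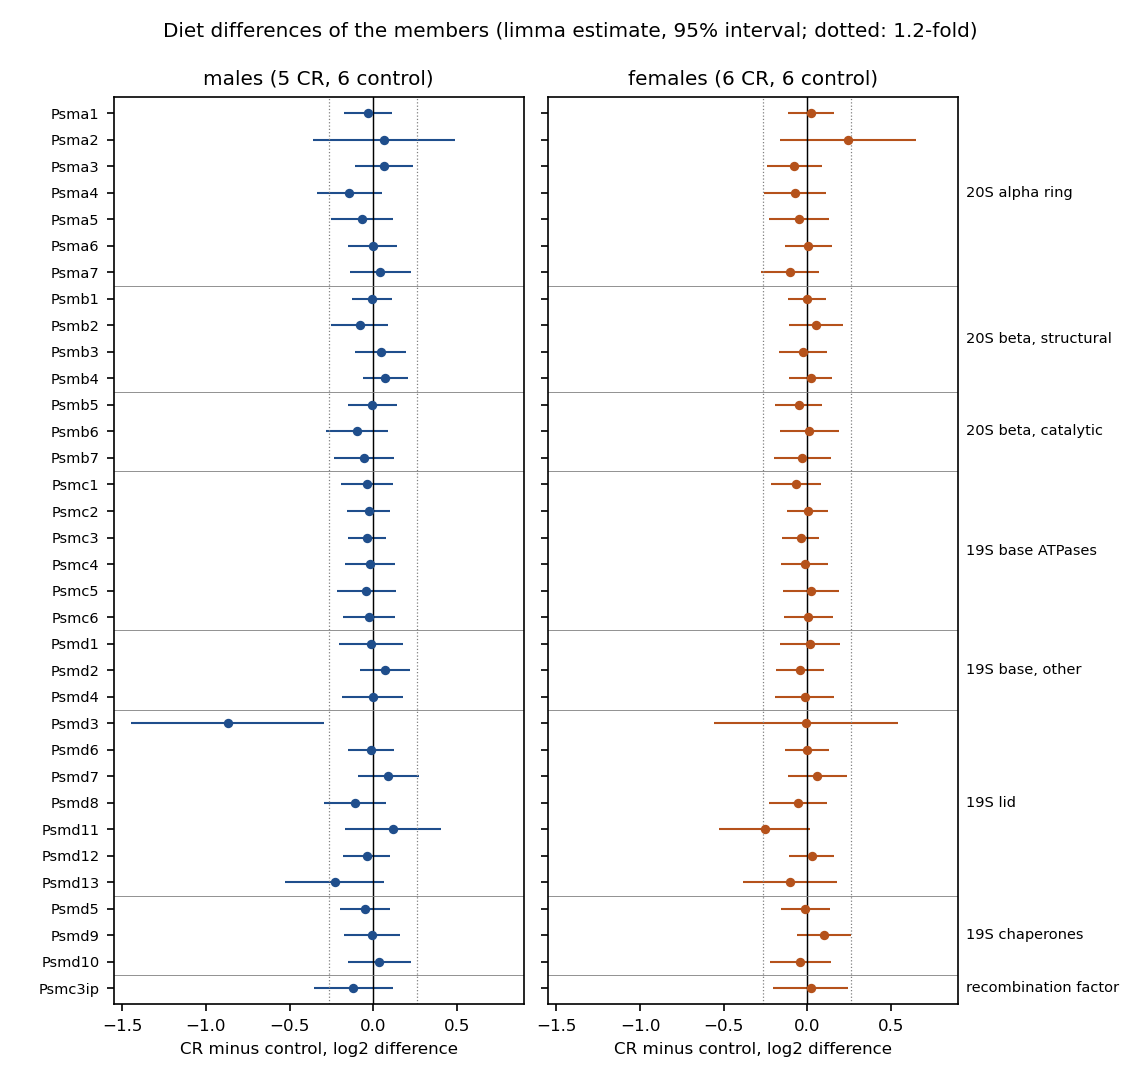
Difference between CR and control pups for each member (log2, horizontal axis) in males (left) and females (right), as the limma estimate with its 95% confidence interval, grouped by role. The interval spans 0 for 33 of 34 members in males and 34 in females, and lies between the dotted lines at 1.2-fold for 25 and 29. Psmd3 in males is at -0.87, with an interval from -1.45 to -0.29 that rests on 1 spread shared by the 4 groups.

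Females showed 20 of 34 members lower in CR pups, against 48.4% of all features, and the median member difference was -0.0092 against 0.0032 over all features. This count was 17 with scale normalization, 17 with Cy5 alone and 13 with the values the authors deposited. No member was called, at an unadjusted p under 0.05 none of the 34 differed against 4.64% of all features, and the smallest adjusted p was 0.996. No member's groups failed to overlap in females, against 0.201% of all features.

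Averaged over both sexes, 26 of 34 members were lower, against 49.1% of all features, with a median of -0.0096. The count was 21 with scale normalization, 20 with the scanner's ratio, 19 with Cy5 alone, 22 in the value table and 34 with median centring, where the median was -0.25. No member was called, and 1 of 34 had an unadjusted p under 0.05 against 7.35% of features. With median centring 15 had, against 17.8% of features and 28.3% of those in the members' range of brightness. The male minus female difference of the diet effect was below 0 for 22 members, against 52.4% of features, and called none. Its unadjusted p was under 0.05 for 1 member, against 4.67% of features. With median centring it was for 10, against 11.8% of features and 17.3% of those in the members' range of brightness. This count of members below 0 was 33 with median centring, and the median went from -0.021 to -0.47.

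The alpha ring forms the outer face of the core and was complete on the array, with 7 of 7 genes. In CR males 4 were lower and 3 higher, between -0.14 and 0.064. In females 4 were lower and 3 higher, between -0.10 and 0.24. Psma4 had the lowest male difference of the ring, -0.14 ± 0.093 (SE; limma, adjusted p 0.780). Its values in CR males were -0.66, -0.31, -0.67, -0.47 and -0.35, and those of control males ran from -0.53 to -0.17 with a median of -0.37. CR males 1 and 3 lay below the control range and the other CR males inside it, so the groups overlapped. In females Psma4 ran from -0.62 to -0.24 in controls (median -0.41) and from -0.79 to -0.25 in CR pups (median -0.52).

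Psma2, an alpha subunit whose probe lies at chr17:58736661-58738012 (rn4, - strand), was the most spread member of the core. Its SD within groups was 0.36, above that of 94.9% of all features. Control males ran from -0.59 to 0.15 with a median of -0.29. CR males were at -0.49, 0.29, -0.51, 0.27 and -0.58. Control females ran from -0.50 to 0.51 (median -0.29) and CR females from -0.41 to 0.43 (median 0.12). High and low pups occurred in every group. The female difference was 0.24 ± 0.20 (SE; adjusted p 0.996 by limma), and its interval, -0.16 to 0.65, is wide. Without control female 1 it was 0.39, and without CR female 2 it was 0.17.

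Psma7 and Psma3 were the core members with the smallest p among those lower in CR females. Psma7 ran from -0.027 to 0.61 in control females (median 0.15) and from 0.0068 to 0.27 in CR females (median 0.082), a difference of -0.10 ± 0.083 (SE). One control female set the top of that range, and without it the difference was -0.026. Psma7 in males ran from -0.097 to 0.16 in controls, with CR males at 0.22, 0.19, 0.038, 0.15 and 0.026. Psma3 ran from -0.069 to 0.18 in control females (median 0.050) and from -0.14 to 0.16 in CR females (median -0.080). Its difference was -0.077 ± 0.080 (SE; adjusted p 0.996 by limma). These ranges overlap almost entirely.

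Among the beta subunits Psmb1 had the smallest spread, an SD within groups of 0.087, above that of 9.11% of all features, and the other 6 lay between 0.10 and 0.15. Of the 4 structural beta genes, 2 were lower and 2 higher in CR pups in each sex, between -0.081 and 0.074. Psmb4 was the highest in males, at 0.074 ± 0.065 (SE; adjusted p 0.843 by limma). The CR males, at 0.17, 0.12, 0.13, 0.17 and 0.014, stayed within the control range of -0.12 to 0.22 (median 0.043). With Cy5 alone the Psmb4 difference was -0.079, and without control male 3 it was 0.039. Psmb2 differed between the sexes by -0.13 ± 0.11 (SE; adjusted p 0.936 by limma) in its diet effect, from -0.081 in males and 0.053 in females. Its CR males were at -0.33, -0.12, -0.15, -0.059 and 0.034, against -0.23 to 0.13 (median -0.039) in control males. Control females ran from -0.29 to 0.038 (median -0.17) and CR females from -0.27 to 0.059 (median -0.050), so the groups overlapped in both sexes.

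With loess, the 3 catalytic subunits stayed close to their controls. Psmb5 carries the chymotrypsin-like site. It ran from -0.24 to 0.13 in control males (median 0.072), and CR males were at -0.025, 0.017, 0.099, 0.076 and -0.14. Control females ran from -0.11 to 0.19 (median 0.11) and CR females from -0.078 to 0.18 (median 0.047). The mean difference over both sexes was -0.027 ± 0.049 (SE), with an interval of -0.13 to 0.075. Psmb6, the caspase-like subunit, was at 0.0074, 0.048, 0.0052, 0.19 and 0.027 in CR males, and control males ran from -0.14 to 0.34 (median 0.15). In females Psmb6 ran from -0.047 to 0.38 in controls and from -0.040 to 0.34 in CR pups. The CR males were the more tightly grouped, with an SD of 0.077 against 0.18 in control males (n = 5 and 6, difference of spread not tested). Psmb7, the trypsin-like subunit, was at 0.093, 0.14, -0.19, 0.23 and 0.10 in CR males and ran from -0.15 to 0.34 in control males. In females it ran from 0.11 to 0.30 in controls and from -0.0088 to 0.33 in CR pups. The mean diet differences were -0.042 ± 0.062 (SE) for Psmb6 and -0.040 ± 0.060 (SE) for Psmb7, and both became positive, 0.086 and 0.087, with scale normalization. The lowest values over both sexes under other settings were -0.28 for Psmb5, -0.27 for Psmb6 and -0.28 for Psmb7.

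All 6 ATPases of the 19S base were measured. In CR males all 6 were lower, with no difference beyond -0.040, but 3 of 6 were with Cy5 alone and 5 with scale normalization. In females 3 were lower and 3 higher, between -0.067 and 0.022. Their intervals in males lay between -0.21 and 0.13. Psmc3 had the smallest spread of all members, with an SD within groups of 0.085. The other base genes are Psmd1 and Psmd2, which scaffold the base, and Psmd4, a ubiquitin receptor. They differed by -0.013 to 0.071 in males and by -0.042 to 0.018 in females. Psmd2 was the highest of these in males. For it CR males were at -0.053, -0.033, -0.054, -0.17 and -0.24, and control males ran from -0.37 to -0.021 (median -0.14). Without control male 2 the difference fell from 0.071 to 0.034. A second Psmd2 probe, less bright, put the male difference at -0.10, and its correlation with the first over 23 arrays was 0.18, so the sign for Psmd2 rests on the probe.

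**Figure D2:**
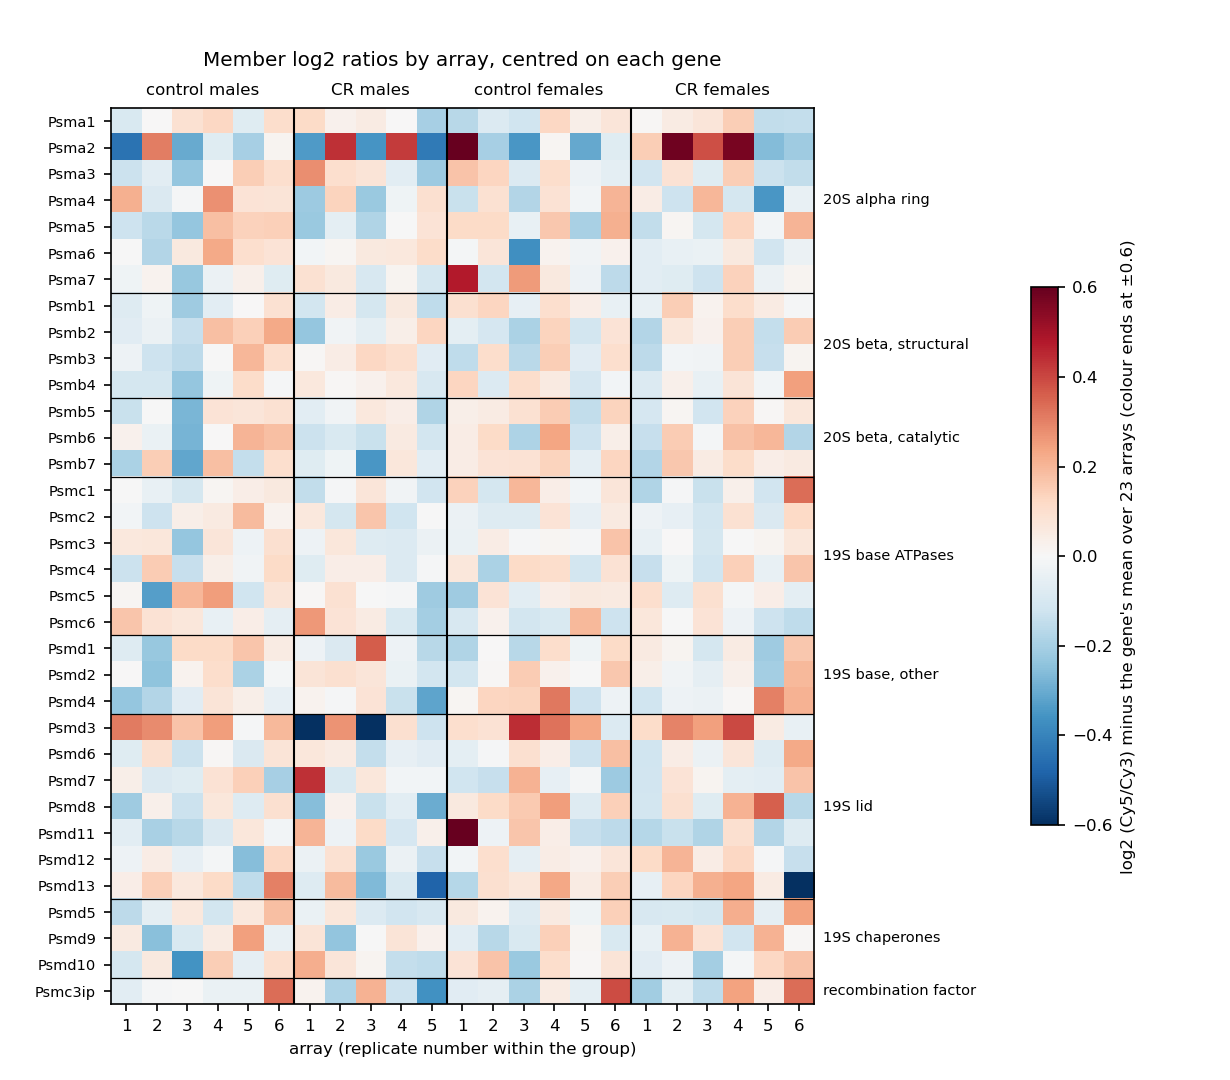
Log2 ratio of each member (rows, by role) on each of 23 arrays (columns, by group), after subtracting the gene's mean over all arrays. Red is above that mean and blue below, with the colour ending at 0.6 in either direction; most rows are pale, and the strongest cells are Psmd3 in CR males 1 and 3 and Psmd11 in control female 1.

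The lid held the widest values. Of its 7 measured genes 5 were lower in CR males and 5 in CR females. Psmd3, a lid scaffold subunit whose probe lies at chr10:87465622-87465681 (rn4, + strand), was the only member with an unadjusted p under 0.05 for diet in males, 0.00482. Its values in CR males were -1.82, 0.25, -1.81, 0.077 and -0.14. Control males ran from -0.027 to 0.29 (median 0.21), control females from -0.10 to 0.42 (median 0.15) and CR females from -0.064 to 0.38 (median 0.16). CR males 1 and 3 therefore lay far below the other 21 arrays, and the remaining CR males lay inside or near the range of the other groups. The male difference was -0.87 ± 0.28 (SE), a fold of 0.547, and did not pass the test (limma adjusted p 0.637). The fit uses 1 spread shared by the 4 groups. For Psmd3 the SD was 1.04 in CR males, against 0.12 in control males, 0.19 in control females and 0.17 in CR females. The SE and p of the male difference may therefore be too small, and its interval too narrow. The size of the male difference depended on the processing, from -1.32 to -0.62 under the other settings. Its lowest adjusted p by limma under any alternative was 0.0898. Leaving out 1 array at a time gave -1.11 to -0.59. Each of these fits keeps CR male 1 or CR male 3, so the range cannot show the difference without both. Within the 4 slides that hold both male groups, CR males were lower on 3, and the differences ran from -1.97 to 0.017. The difference over both sexes was -0.44 ± 0.19 (SE; adjusted p 0.646 by limma), and the sexes' diet effects differed by -0.86 ± 0.38 (SE; adjusted p 0.936 by limma).

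The pair of low Psmd3 spots was checked in other readings of the same arrays. The scanner software's own log2 ratio was -2.77 and -2.57 on CR males 1 and 3, and the log2 Cy5 intensity of the spot was 7.13 and 7.32 there against 9.23 to 10.04 on the other 21 arrays. The deposited value table gave 6.66 and 6.72 there, and 8.60 to 9.16 elsewhere. The spot was still well above background on both arrays. Within 100 kb of the Psmd3 probe on rn4 chromosome 10, 9 other features were measured, and on these 2 arrays they ranged from -0.19 to 0.17. The array has 1 Psmd3 probe, so the low values were not seen by a second one, and sequence differences under the probe were not tested.

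Psmd13, another lid subunit, had the next smallest p in males. In CR males it was at 0.084, 0.35, -0.10, 0.070 and -0.32, against 0.0093 to 0.46 (median 0.25) in control males. The groups overlapped over most of that range. The difference was -0.23 ± 0.14 (SE; adjusted p 0.763 by limma) in males, and in females -0.11 ± 0.14 (SE). Without CR male 5 the male value was -0.15, and without CR female 6 the female value turned to 0.045. CR females ran from -0.63 to 0.40 (median 0.25), the lowest value being a single pup, and control females from -0.0082 to 0.39 (median 0.24).

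Psmd11, a lid subunit that helps hold the cap to the core, had the lowest female difference, -0.25 ± 0.13 (SE), with an unadjusted p of 0.0668. Control females ran from -0.018 to 1.14 (median 0.14) and CR females from -0.040 to 0.24 (median -0.012). One control female, at 1.14, stood far above the next at 0.31, and without it the female difference was -0.083. In males the sign was opposite: CR males were at 0.35, 0.11, 0.26, 0.040 and 0.17, control males ran from -0.053 to 0.21 (median 0.066), and the difference was 0.12 ± 0.14 (SE). The sexes' diet effects differed by 0.37 ± 0.19 (SE; adjusted p 0.936 by limma).

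Psmd7, a lid subunit that pairs with the deubiquitinase Psmd14, leaned upward in both sexes. Its values in CR males were 0.54, 0.0099, 0.17, 0.085 and 0.088, against -0.096 to 0.24 (median 0.086) in control males. Without the highest CR male the difference of 0.092 ± 0.089 (SE) fell to 0.00092. In females the difference was 0.061 ± 0.084 (SE), with controls between -0.11 and 0.31 and CR pups between -0.013 and 0.27. Psmd9, a chaperone of base assembly, had the smallest p of the members that were higher in CR females, with a difference of 0.10 ± 0.078 (SE; adjusted p 0.996 by limma). CR females ran from -0.27 to 0.053 (median -0.11) and control females from -0.32 to -0.012 (median -0.23). The other chaperones Psmd5 and Psmd10 differed by -0.049 and 0.037 in males and by -0.010 and -0.040 in females.

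Psmc3ip, the recombination factor caught by the name rule, is given for completeness. CR males were at 0.057, -0.15, 0.24, -0.087 and -0.33, and control males ran from -0.030 to 0.37 (median 0.012). Control females ran from -0.16 to 0.42 and CR females from -0.18 to 0.37. The groups overlapped, and the difference over both sexes was -0.049 ± 0.079 (SE; adjusted p 0.944 by limma).

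**Figure D3:**
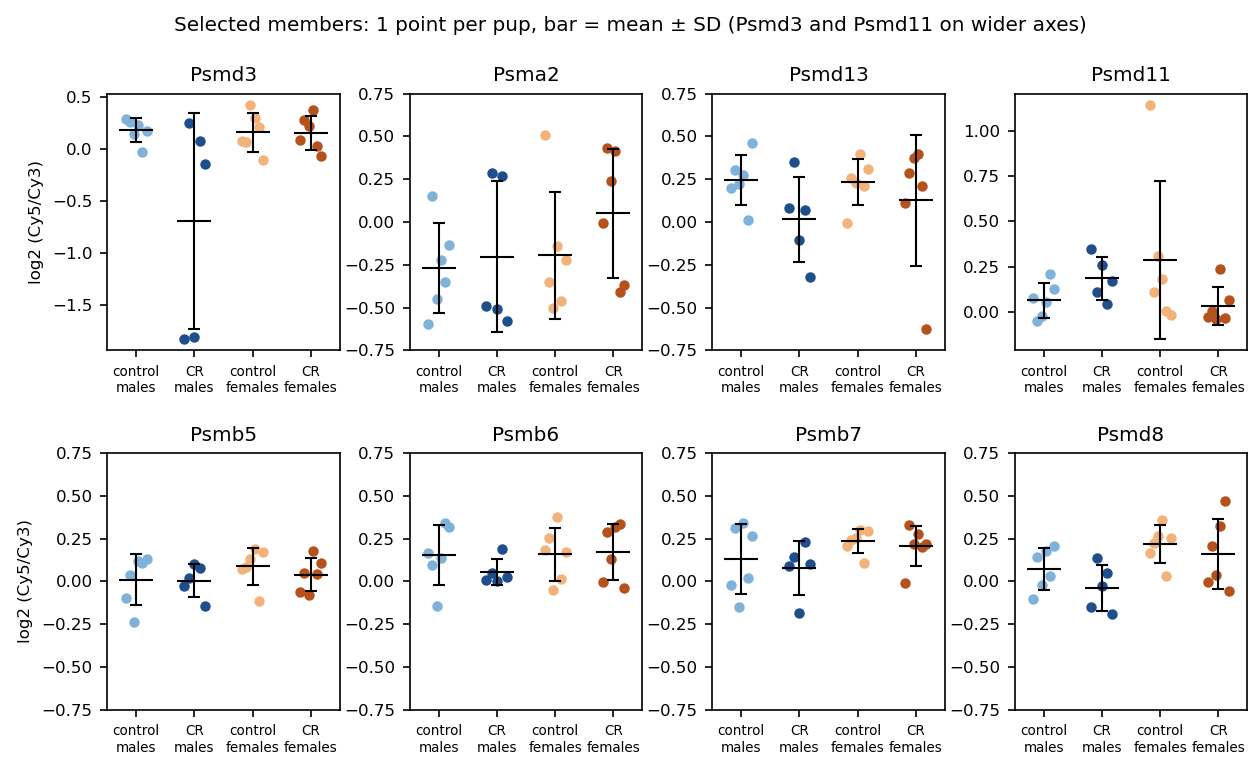
Log2 ratio (vertical axis) of 8 members in the 4 groups, 1 point per pup, with the mean and SD as a bar. Psmd3 falls to about -1.8 in CR males 1 and 3, Psma2 is wide in every group, Psmd13 in CR females and Psmd11 in control females have a far pup, and the catalytic subunits overlap throughout.

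The next comparison was of males with females. Averaged over the diets, 24 of 34 members were lower in males, against 50.7% of all features, and the median was -0.039 against -0.0010. None of the members was called, while 12 of all 20764 features were (0.0578%). At an unadjusted p under 0.05 there were 4 members, all lower in males, against 7.38% of all features. They were Psmd8, Psmb1, Psmd4 and Psmd3. That count ran from 1 to 5 over the alternatives, and it is close to the share of all features. No member had males and females that did not overlap, against 0.0393% of features. With median centring all 34 members were lower in males, and with Cy5 alone 19 were (20 with the deposited value table).

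Psmd8, a lid subunit, had the smallest p of these. Control males ran from -0.10 to 0.21 (median 0.086), control females from 0.031 to 0.36 (median 0.24) and CR females from -0.056 to 0.47 (median 0.12). CR males were at -0.15, 0.13, -0.025, 0.048 and -0.19. The difference was -0.17 ± 0.061 (SE), unadjusted p 0.0102 and adjusted p 0.664 by limma, and it lay between -0.31 and -0.14 under every alternative run. Psmb1 differed by -0.096 ± 0.040 (SE; adjusted p 0.673 by limma). Its control males ran from -0.27 to 0.037 and control females from -0.10 to 0.076. CR males were at -0.16, -0.010, -0.16, 0.0050 and -0.21, and CR females ran from -0.098 to 0.092. Psmd4 was at -0.13 ± 0.061 (SE), and Psmd3 at -0.41 ± 0.19 (SE), the latter including CR males 1 and 3. Over the mean of the diets, markers of B cells (7 of 7, median -0.16), monocytes (9 of 9, median -0.10) and neutrophils (6 of 6, median -0.12) were also lower in males. Red cell marker means were -1.04 in control and -0.28 in CR males, against -0.15 and -0.49 in females. Platelet marker means were -0.37 and -0.46 in males, against 0.094 and -0.35. Monocyte, T and NK cell marker means were lower in control males than in control females, and higher in CR males than in CR females. For monocytes they were -0.050 in control males against 0.27 in control females, and 0.060 in CR males against 0.040 in CR females. The part of these cell types in this was not tested. The members highest in males were Psma6, at 0.089, and Psmc6, at 0.061. A second probe put these at -0.029 for Psma6, so that sign rests on the probe, and at 0.023 for Psmc6. Without control female 3 the Psma6 value was 0.057, and without CR male 1 that of Psmc6 was 0.031. Psma6 ran from -0.59 to -0.18 in control males and from -0.78 to -0.34 in control females. CR males were at -0.43, -0.40, -0.35, -0.35 and -0.30, and CR females ran from -0.53 to -0.35. For Psmc6 control males ran from -0.18 to 0.045 and control females from -0.25 to 0.074. Its CR males were at 0.14, -0.043, -0.073, -0.21 and -0.33, and CR females ran from -0.27 to -0.041. Males and females overlapped for both genes.

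Within groups, the core genes correlated with one another from pup to pup more than the regulator genes did. With group means removed, the correlation over 23 arrays had a median of 0.32 among the 91 pairs of core genes (median Spearman's rho 0.34), 0.066 among the 120 pairs of 19S genes and 0.14 between core and 19S genes. Over all 561 member pairs it was 0.16, and over pairs of the 10963 features in the same range of brightness 0.0012. A correlation above 0.5 was held by 30.8% of core pairs, 8.33% of 19S pairs and 6.19% of pairs of features in that range. Without the 2 arrays farthest from the median of the member mean, CR female 4 and control male 6, the core median was 0.29 and the 19S median 0.062. The share of pairs above 0.5 was then 20.9% for the core and 8.33% for 19S. These are descriptions over genes that share arrays, dye labelling and cell mixture, and no test was made.

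**Figure D4:**
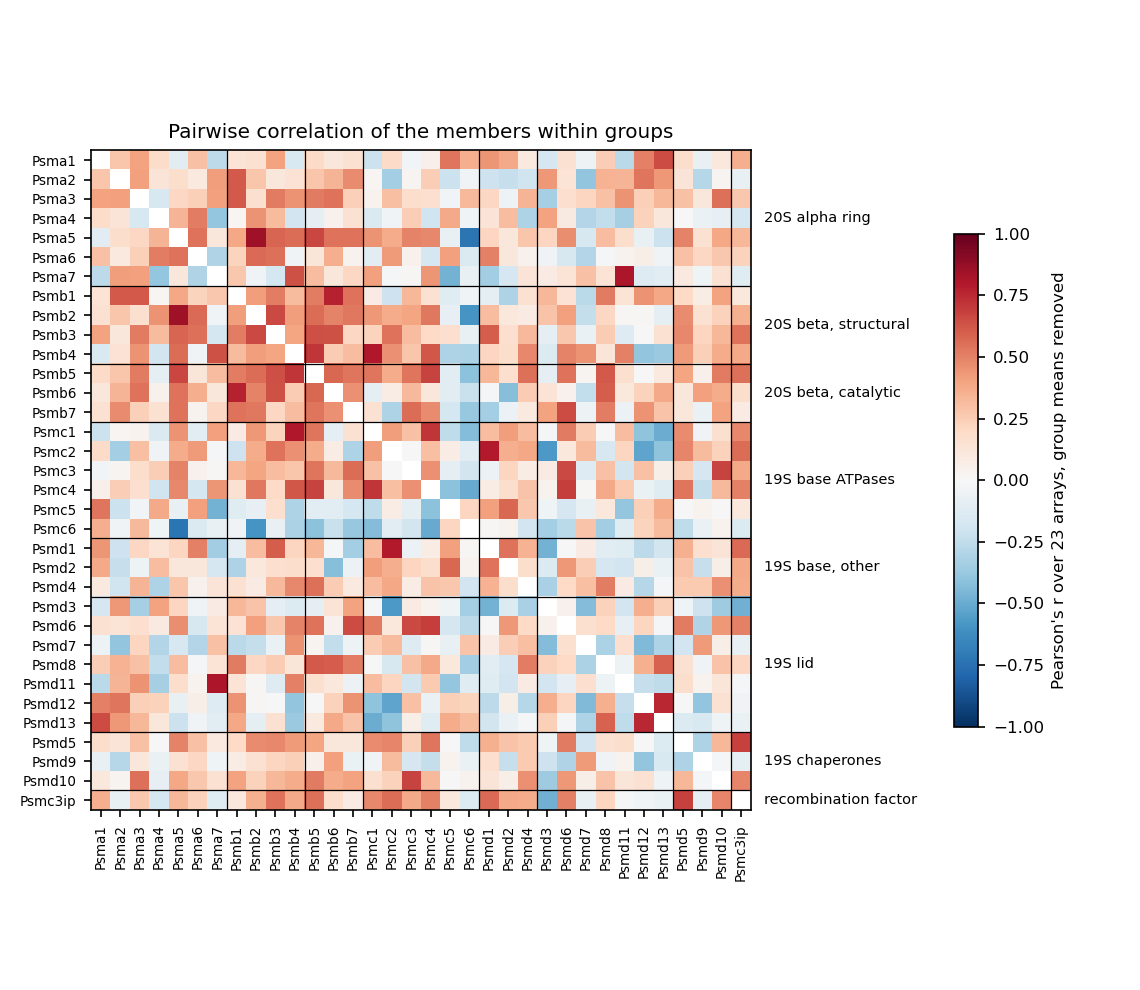
Pearson's correlation of each pair of members over 23 arrays after removing group means, ordered by role. The block of 20S core genes at the upper left is mostly red (median 0.32), the 19S blocks are mixed (median 0.066), and the Psmc6 row is mostly blue.

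The closest pair was the alpha subunit Psma5 with the beta subunit Psmb2, at r = 0.85 (rho 0.85, and 0.87 without the 2 arrays farthest in Psma5). Psma7 and Psmd11 reached 0.81, with rho 0.64; r was 0.58 without the 2 farthest arrays and 0.63 without control female 1, which was high in both. Psmb4 and the ATPase Psmc1 reached 0.80 (rho 0.79). The most opposed pair was Psma5 with the ATPase Psmc6, at -0.73 (rho -0.76, and -0.71 without 2 arrays). Against the mean of the other members, Psmb5 was the most alike (r = 0.77, rho 0.77), followed by Psmb1 (0.68) and Psmb2 (0.66). The least alike were Psmc6 (-0.31), Psmd7 (-0.18) and Psmd9 (-0.056). Without the 2 arrays farthest in that mean these became 0.72, 0.63, 0.59, -0.29, -0.050 and 0.27 in the same order, so the sign for Psmd9 rests on those arrays.

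Members spread about as much as all features, and most spread less than the median feature in their range of brightness. The median SD within groups was 0.14 over the members and 0.14 over all features, and 0.17 over features in the members' range of brightness, and 29 of 34 members lay below that last value. Psmd3 (0.50) and Psma2 (0.36) had the highest, followed by Psmd13 (0.25) and Psmd11 (0.24). Of 6 members with more than 1 probe, the second probes followed the first with r from 0.015 (a Psmd7 probe) to 0.56 (Psmd1 and Psmc6), so part of a member's variation is particular to its probe.

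**Figure D5:**
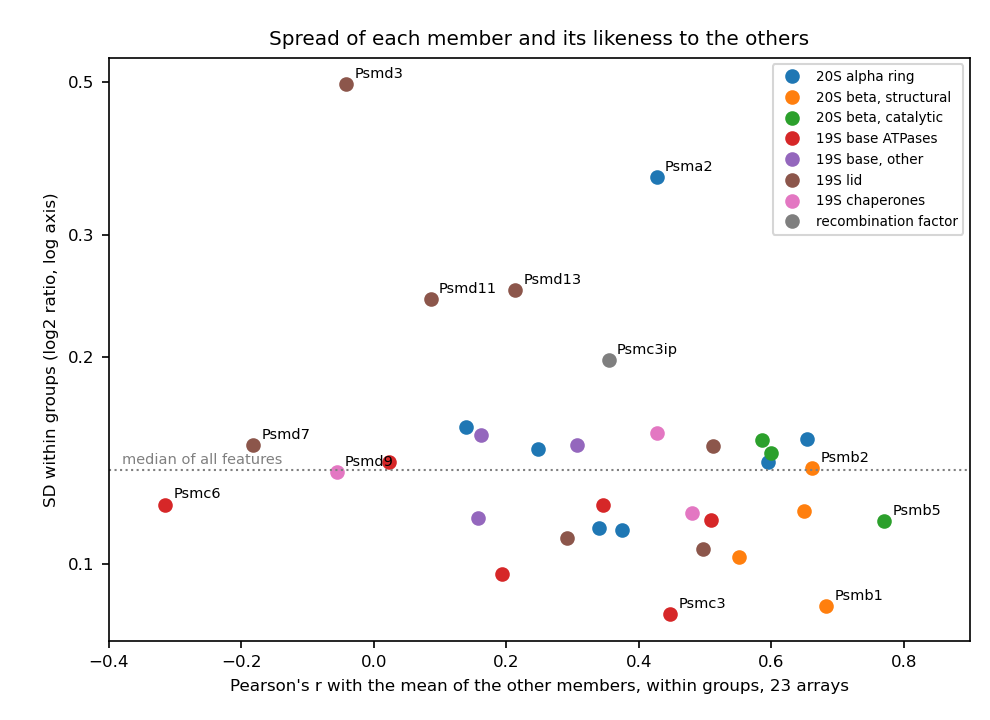
SD of each member within groups (vertical, log axis) against its correlation with the mean of the other members (horizontal), 1 point per gene, coloured by role, with the median SD of all features dotted. Core beta genes sit at the right (Psmb5 at r = 0.77), on both sides of the dotted line, with SDs from 0.087 to 0.15. Psmd3 (SD 0.50) and Psma2 (SD 0.36) stand above the rest, and Psmc6 (r = -0.31) lies at the left.

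Promoters are shown for the members most and least alike to the rest, since these rank the set by how it varied. RefSeq's table for rat build GRCr8 held the 250 bases before the annotated start for 31 of 34 members. Capitals mark TGANNNNGC, the antioxidant response core bound by Nfe2l1 and Nfe2l2, TGACTCA, an AP-1 element, and CCAAT, a general promoter box, on either strand, and overlapping matches merge into 1 run. Each is written 5′ to 3′ toward the gene, with the most alike members first.
Psmb5, chr15:32047380-32047629 (- strand): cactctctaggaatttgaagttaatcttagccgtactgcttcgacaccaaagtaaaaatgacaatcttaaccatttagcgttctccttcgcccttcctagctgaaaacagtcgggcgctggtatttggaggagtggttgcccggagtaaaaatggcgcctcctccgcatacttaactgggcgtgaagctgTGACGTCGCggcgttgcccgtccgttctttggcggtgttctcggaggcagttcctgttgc
Psmb1, chr1:65134771-65135020 (- strand): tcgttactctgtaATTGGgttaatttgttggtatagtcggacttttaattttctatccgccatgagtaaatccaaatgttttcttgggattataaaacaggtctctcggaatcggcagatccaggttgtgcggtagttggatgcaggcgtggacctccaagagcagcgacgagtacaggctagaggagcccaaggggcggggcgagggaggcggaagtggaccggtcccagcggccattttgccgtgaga
Psmb2, chr5:144254808-144255057 (+ strand): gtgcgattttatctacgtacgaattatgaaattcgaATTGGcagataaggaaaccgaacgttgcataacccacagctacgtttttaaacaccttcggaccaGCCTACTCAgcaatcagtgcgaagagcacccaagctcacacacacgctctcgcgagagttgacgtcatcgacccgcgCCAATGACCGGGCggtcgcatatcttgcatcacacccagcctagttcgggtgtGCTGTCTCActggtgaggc
Psmd9, chr12:39018265-39018514 (- strand): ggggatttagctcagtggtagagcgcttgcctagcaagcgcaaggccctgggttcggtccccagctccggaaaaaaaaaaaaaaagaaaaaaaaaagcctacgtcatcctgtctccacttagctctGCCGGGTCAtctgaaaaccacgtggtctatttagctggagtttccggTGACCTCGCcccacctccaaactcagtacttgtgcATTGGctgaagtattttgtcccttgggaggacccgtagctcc
Psmd7, chr19:52411317-52411566 (- strand): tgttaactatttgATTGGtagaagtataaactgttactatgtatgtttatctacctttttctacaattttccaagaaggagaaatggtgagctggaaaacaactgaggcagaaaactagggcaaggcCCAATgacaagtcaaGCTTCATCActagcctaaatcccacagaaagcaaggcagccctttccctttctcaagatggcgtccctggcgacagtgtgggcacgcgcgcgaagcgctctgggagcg
Psmc6, chr15:21022064-21022313 (+ strand): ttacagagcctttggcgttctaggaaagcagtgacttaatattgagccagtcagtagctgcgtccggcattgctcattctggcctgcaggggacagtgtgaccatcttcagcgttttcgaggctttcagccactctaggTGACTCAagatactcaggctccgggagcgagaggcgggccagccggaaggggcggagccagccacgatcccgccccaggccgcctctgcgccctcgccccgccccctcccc
TGANNNNGC occurred in 15 of 31 member promoters (48.4%) and in 34.7% of the 33469 promoters of the table. Psmb5 and Psmb2 among the most alike members held it, and so did Psmd9 and Psmd7 among the least alike. CCAAT occurred in 17 of 31 (54.8%) against 34.0% of all promoters. TGACTCA occurred in 1 of 31, that of Psmc6 (3.23%), against 4.05%. A match is a description of the letters and not a bound site.

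Of genes that work with the members, the immunoproteasome subunits and activators came first. Of 7 measured, 5 were lower in CR males and 6 in CR females, and none passed the test; with scale normalization 3 were lower in each sex. In both sexes' mean only Psme3, named for this after its values were seen, had an unadjusted p under 0.05 (-0.13 ± 0.056, SE; 0.0285). Psmb8 differed by -0.045 ± 0.12 (SE), Psmb9 by -0.063 ± 0.068 (SE) and Psmb10 by -0.042 ± 0.055 (SE) over both sexes. Scale normalization turned Psmb8 (0.056) and Psmb9 (0.025) positive, and Cy5 alone did so for Psmb10 (0.049). The activator genes Psme1 and Psme2, whose products open the alpha ring, differed by -0.048 and -0.095. Psmb9 followed the member mean with r = 0.72 (rho 0.75) and Psmb10 with 0.67.

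The assembly factors moved little with diet. Pomp, which helps the beta ring to form, differed by 0.030 ± 0.041 (SE), and was negative (-0.057) with scale normalization. The array names give no probe by the rule for Psmg1, Psmg2 and Psmg3, chaperones of the alpha ring, but RefSeq ties older names on the array to them. Their differences over both sexes were 0.048, -0.061 and 0.056. Psmd14 and Psmf1 were not analysed here. Psmg2 followed the member mean most closely of all pathway genes, at r = 0.82 (rho 0.79, and 0.78 without the 2 farthest arrays). Next were the stress transcription factor Nfe2l2 (0.73) and Psmb9, and the most opposed were Zfand2a (-0.73), Mafg (-0.62) and the peptidase Tpp2 (-0.54). Zfand2a is a stress-induced partner of the 19S cap, and Mafg is a small Maf protein that pairs with Nfe2l1 and Nfe2l2. Nfe2l1 itself differed by 0.0065 ± 0.044 (SE) over both sexes, and its sign varied with the settings.

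Upstream of the proteasome, 5 of 6 ubiquitin genes and activating enzymes were higher in CR males and 3 of 6 in CR females. In males 5 of the 6 were lower with median centring, and 4 with Cy5 alone. The activating enzyme Uba1, singled out after its values were seen, had the smallest unadjusted p of them, 0.00891, in females (-0.26 ± 0.090, SE), with an adjusted p of 0.996 by limma. Of 17 conjugating enzymes 11 were lower in each sex, of 13 shuttle factors 6 were lower in males and 10 in females, and of 13 cullin ligase genes 8 and 4. All 9 genes of the COP9 signalosome, a complex related to the lid, were lower in CR pups over both sexes, with a median of -0.031 and no adjusted p under 0.743. That count was 5 of 9 with scale normalization, and 8 with Cy5 alone, the scanner's ratio and the value table. No gene of these lists was called in any comparison.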

How the data were processed

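Total RNA of PBMC from 23 pups was hybridised on Agilent rat arrays, each pup in Cy5 against a Cy3 pool, with no dye swap. According to the submitters' processing notes, spots were read with version 10.5.1.1 of Agilent Feature Extraction. The deposited scanner files hold spot and background intensity on a linear scale, background flags, and a log10 ratio of Cy5 over Cy3 that the scanner software had background-subtracted and dye-normalized, per the file headers. A deposited value table holds log2 values of the authors, close to the Cy5 channel (median r with Cy5 0.997); how they were normalized is not given in the sources used here. Outlier spots were left out, the background was corrected with normexp (offset 50) and each array was normalized by loess, in limma 3.58.1 under R 4.3.3. Loess removes brightness trends within an array, whether they come from the dyes or from a change shared by genes of like brightness; the median-centred alternative keeps both.

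Probes were kept when well above background on at least 50% of the arrays of a group (23693 probes). The brightest probe stood for a gene, which gave 20764 features, 10024 of them with a gene name. limma was fitted to the 4 group means across all features and 5 contrasts were taken, with Benjamini-Hochberg adjustment over all features. Slide and scan cannot be told apart. The precision is limited by the number of arrays. The method was tested on simulated data.

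Members and lists were chosen with earlier results of these data known. Per-array values are given for the 3 members with the smallest p in each direction for each diet contrast, 2 for the difference of the diet effects and for sex, Psmb5, Psmb6, Psmb7 and Psmc3ip; 7 genes of the pathway lists are given whatever their p. Likeness is Pearson's r with group means removed. Promoters came from RefSeq (GRCr8) and probe positions from the files (rn4). Protein sequences were not used here.

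Alternatives were the replicate number or the slide as a block, other background corrections and normalizations, the Cy5 channel alone, the value table, other filters, the mean of a gene's probes, array weights and leaving out each array. An alternative without the 2 arrays farthest from their group means, and one without Psmc3ip, were chosen after seeing the data.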

Additional observations from a re-analysis of the deposited data

Results flagged for a closer look

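In 9 of 80 combinations of a named member and a group, 1 array lay far from the others of its group by Dixon's criterion at the 95% level. Chance alone meets that level in about 1 of 20 for normal values of genes not chosen by their p. Most named members were chosen for a small p in these data, so their count cannot be set against that rate. Control female 1 was high in 2 members, with Psma2 at 0.51 (next highest -0.14) and Psmd11 at 1.14 (next 0.31). Psmd11 was also far in CR female 4, at 0.24 (next 0.063). Psmd13 was low in CR female 6, at -0.63, where the next lowest was 0.11. Psma6 was low in control female 3, at -0.78 (next -0.43). Psmd9 was low in CR male 2, at -0.39 (next -0.16). Psmb6 was high in CR male 4, at 0.19 (next 0.048), and Psmb7 low in CR female 1, at -0.0088 (next 0.20). Psmc3ip, which is no proteasome subunit, was high in control male 6, at 0.37 (next 0.032). Psmd3 in CR males is not among them, since its 2 low arrays lie next to each other.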

How the results depend on the processing

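No member was called in any of the 5 comparisons under any of the 38 alternatives to each, including the replicate number as a block, the slide as a fixed or random block and leaving out each array. Of 518 differences of named genes under alternatives other than leaving out 1 array, 489 kept their sign and their side of the threshold and 29 turned sign. None gained an adjusted p under 0.05. Some of these alternatives could not turn a member's sign. Other filters left the median differences of the members unchanged, and leaving out CR females 5 and 6 left that of males unchanged. The cause of the turns was not tested. Median centring moved the median over the members to -0.50 in males, -0.25 over both sexes, -0.47 for the difference of the diet effects and -0.15 for sex, and turned Psmb4 (-0.44), Psmd7 (-0.29) and Psmd2 (-0.43) in males, Psmd7 (-0.12), Psma2 (-0.071), Psmb4 (-0.20), Nfe2l1 (-0.077) and Pomp (-0.22) over both sexes, Psma7 (-0.36) in the difference of the diet effects, and Psma6 (-0.079) and Psmc6 (-0.055) for sex. Over both sexes, scale normalization turned Psmb6 (0.086), Psmb7 (0.087), Psmb8 (0.056), Psmb9 (0.025), Psme1 (0.049), Nfe2l1 (-0.0027) and Pomp (-0.057). The Cy5 channel alone turned Psmb6 (0.067), Psmb10 (0.049) and Pomp (-0.12) over both sexes and Psmb4 (-0.079) in males. Array weights turned Psmb8 (0.023), Psmb9 (0.021) and Nfe2l1 (-0.0034). Nfe2l1 also turned with the slide as a fixed block (-0.013), the scanner's ratio (-0.0089) and the value table (-0.016), and Psmd2 in males with the mean of its probes (-0.015). Leaving out 1 array turned Psmb8 (range -0.089 to 0.019) and Nfe2l1 (-0.010 to 0.025) over both sexes.

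Of 33 pairs of same-numbered arrays of different groups, 15 had a correlation over 0.1, with a median of 0.089 and a range from -0.41 to 0.46. Among the 23 arrays, 5 correlated best with their own number. Some of these pairs share a slide, so number and slide cannot be told apart there, and pairing was not tested. With the replicate number as a block 0 members were called, 19 of 34 were lower in CR males and 1 feature was called in males. All 34 members were well above background on every array, so none of their values is a bound.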

Other observations

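The mean of the 20S core genes ran from -0.24 to 0.022 in control males, -0.15 to -0.0072 in CR males, -0.15 to 0.043 in control females and -0.14 to 0.077 in CR females, so the lowest and the highest pups for the core were a control male and a CR female. The mean of the 19S genes ran from -0.0030 to 0.099 in control males, -0.11 to 0.072 in CR males, 0.022 to 0.12 in control females and -0.0078 to 0.12 in CR females. Over the 23 arrays, with group means removed, the member mean followed the mean of the neutrophil markers with r = 0.53 (rho 0.46), and with 0.30 without the 2 arrays farthest in the member mean. It followed plasma cell markers with 0.50 (0.42 without those arrays), monocyte markers with 0.36, B cell markers with 0.28 and T cell markers with 0.093, and platelet markers with -0.35. These are descriptions without a test.

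Ube2s, a ubiquitin conjugating enzyme of mitotic exit, and Ddb1, an adaptor of cullin 4 ligases, stood out in the pathway lists after their values were seen. Ube2s was lower in CR pups by a log2 difference of -0.45 ± 0.16 (SE; unadjusted p 0.00839, adjusted p 0.589 by limma) over both sexes, and lower in males by -0.54 ± 0.16 (SE; adjusted p 0.664 by limma). Ddb1 differed by -0.67 ± 0.23 (SE; unadjusted p 0.00831, adjusted p 0.637 by limma) in males. Neither passed the test.

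Psma8 and Psmb11, subunits of the proteasomes of testis and thymus, which older names on the array identify through RefSeq, were well above background on 0 of 23 arrays.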
